A study of Mus musculus with 2 samples.

Results

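Macrophages with abundant MHC class II RNA and no *Cxcl9* RNA were examined among immune cells of subcutaneous MC38 tumours. A barcode was a member if it passed quality limits of at least 500 UMIs (unique molecular identifiers, which mark single RNA molecules), 200 detected genes and at most 10% mitochondrial UMIs, and met the terms that follow. It carried at least 10 UMIs of the C1q genes *C1qa*, *C1qb* and *C1qc* and none of *Cd3d*, *Cd3e* and *Cd3g*. The sum of *H2-Aa*, *H2-Ab1*, *H2-Eb1* and *Cd74* reached at least 30000 CPM (the counts-per-million unit, here UMIs of a gene or gene set scaled by all UMIs of the barcode), and *Spp1* stayed under 10000 CPM. It had no UMI of *Cxcl9*, *Rsad2*, *Ccr7*, *Flt3*, *Cd209a* or *Cd79a*, and at most 1 of *Lyve1*. The rule held for 1295 of 19261 barcodes, 1006 of 9527 in UEIS LSL and 289 of 9734 in UEIS KI.

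MC38, a mouse colon adenocarcinoma line, was grown under the skin of C57BL/6 mice called UEIS LSL and UEIS KI, and CD45+ cells were sorted from the digested tumours. The labels do not expand either name, give no age or sex, and do not say whether mice were pooled. UEIS itself matched no symbol of the matrices, so the RNA that names the groups could not be looked up by that name. Whether it was counted under another symbol was not tested. Each group held 1 library of 10x Genomics 3' single-cell RNA, so no difference was tested. Each 95% interval covers counting error only, not variation between mice or libraries. Intervals of gene levels and of their ratios also leave out variation between cells. By its title the study concerns a micropeptide, UEIS, with a restraining role in type I interferon and cGAS-STING signalling. The question here was what the class II-high macrophages of both groups looked like.

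MHC class II molecules show peptides from engulfed proteins to CD4 T cells. The invariant chain, encoded by *Cd74*, guards the binding groove on the way to the endosome, where proteases trim it and H2-DM exchanges its remnant for a peptide. In macrophages class II genes are switched on through the transactivator *Ciita*, whose main inducer is interferon-gamma, and *Cxcl9* is a chemokine gene induced by the same cytokine. In tumours, class II-high macrophages are commonly set apart from class II-low macrophages that scavenge and remodel tissue.

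Members carried the RNA of macrophages. Of 12 macrophage markers, which include the 3 C1q genes of the rule, 0 were at 0 in either library and 11 were seen in at least 20% of members of both. Their summed level was 17139 CPM in UEIS LSL, with UMIs summed over the cells as in each CPM of a gene below, and 12679 CPM in UEIS KI. Most of each sum came from the C1q genes, which the rule requires. *C1qa*, *C1qb* and *C1qc* were at 3347, 4649 and 2735 CPM in UEIS LSL and 2380, 3626 and 2016 CPM in UEIS KI. *Mertk*, the marker under 20%, was seen in 13.4% and 9.69% of members. *Csf1r*, the receptor for the macrophage growth factor, was at 663 CPM in UEIS LSL and 538 CPM in UEIS KI. *Apoe*, a lipid carrier that macrophages make in quantity, was at 3326 and 2566 CPM.

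Markers of lineages other than monocytes and dendritic cells were scarce in the same cells. The 8 monocyte markers summed to 819.7 and 822 CPM in members against 583 and 539.6 CPM in class II-low counterparts, and their part in the results below was not tested. Of the genes that define conventional dendritic cells, *Zbtb46* was at 0.644 CPM in UEIS LSL and 2.42 CPM in UEIS KI, and *Xcr1* at 0.430 and 0.403 CPM. Other markers of these cells were not scarce. At least 20% of members carried 3 of 10 cDC2 markers in UEIS LSL and 2 in UEIS KI, and 2 of 7 cDC1 markers in each library. All 10 cDC2 markers summed to 447 and 448 CPM, with 2 of them at 0 in both libraries because the rule requires it. The same sum was 405 and 375 CPM in class II-low counterparts. It was 1281 and 931 CPM in class II-high barcodes with *Cd209a* or *Flt3*, which were chosen for 2 of the 10. *Sirpa* made up most of the sum in members, at 281 and 265 CPM, and in counterparts, at 342 and 333 CPM. *Itgax* was higher in members, at 106 and 110 CPM against 33.2 and 18.4 CPM. So was *Klrd1*, at 7.41 and 31.0 CPM against 1.92 and 3.10 CPM. *Clec10a*, *Dpp4*, *Kit* and *Ffar2* were also higher in members of both libraries, and *Zbtb46* in UEIS KI alone. The 7 cDC1 markers summed to 216 and 160.4 CPM, the 8 mature dendritic cell markers to 31.2 and 31.0 CPM, and the 6 plasmacytoid dendritic cell markers, *Bst2* among them, to 252 and 214 CPM. Neutrophil, fibroblast and T cell markers summed to 21.5, 34.3 and 46.6 CPM in UEIS LSL and 29.4, 21.8 and 61.7 CPM in UEIS KI. In barcodes gated as those cells the same sums were 44347, 25407 and 4215 CPM in UEIS LSL and 88764, 16917 and 4499 CPM in UEIS KI. B cell markers reached 89.1 and 76.2 CPM against 15723 and 10188 CPM in gated B cells, and NK, mast, endothelial, tumour epithelial and erythroid markers summed to at most 7.30 CPM each. *Igkc*, an antibody light chain, differed between the libraries at 0.644 CPM in UEIS LSL and 35.5 CPM in UEIS KI. It did so as well in class II-low macrophages, at 0.739 and 22.1 CPM, and its part in the results below was not tested.

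Members took a smaller share of macrophages in UEIS KI. The macrophage gate (the quality limits, the C1q term and the absence of *Cd3* UMIs) kept 5693 barcodes in UEIS LSL and 6155 in UEIS KI, 60.8% and 65.2% of those past the quality limits. Of the gate, 17.7% (exact Clopper-Pearson interval 16.7 to 18.7) were members in UEIS LSL against 4.70% (4.18 to 5.25) for UEIS KI, which is a log2 ratio of -1.91 (-2.11 to -1.72). The class II term accounted for most of the barcodes dropped after the gate, since 1562 of the 5693 and 405 of the 6155 met it. Of the later terms that for *Cxcl9* removed the most, 316 and 45 barcodes.

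The lower share did not belong to one limit. At least 10000 CPM of class II RNA were found in 48.0% (46.7 to 49.3) of gated UEIS LSL macrophages against 14.8% (13.9 to 15.7) for UEIS KI. At 50000 CPM the shares were 12.5% (11.6 to 13.4) and 2.66% (2.28 to 3.10). The median gated macrophage carried class II RNA at 8644 CPM in UEIS LSL and 430.4 in UEIS KI, and the upper quartiles were 33066 and 2507. Depth was close, with a median of 9574 UMIs per gated macrophage in UEIS LSL and 10322 in UEIS KI.

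**Figure D1:**
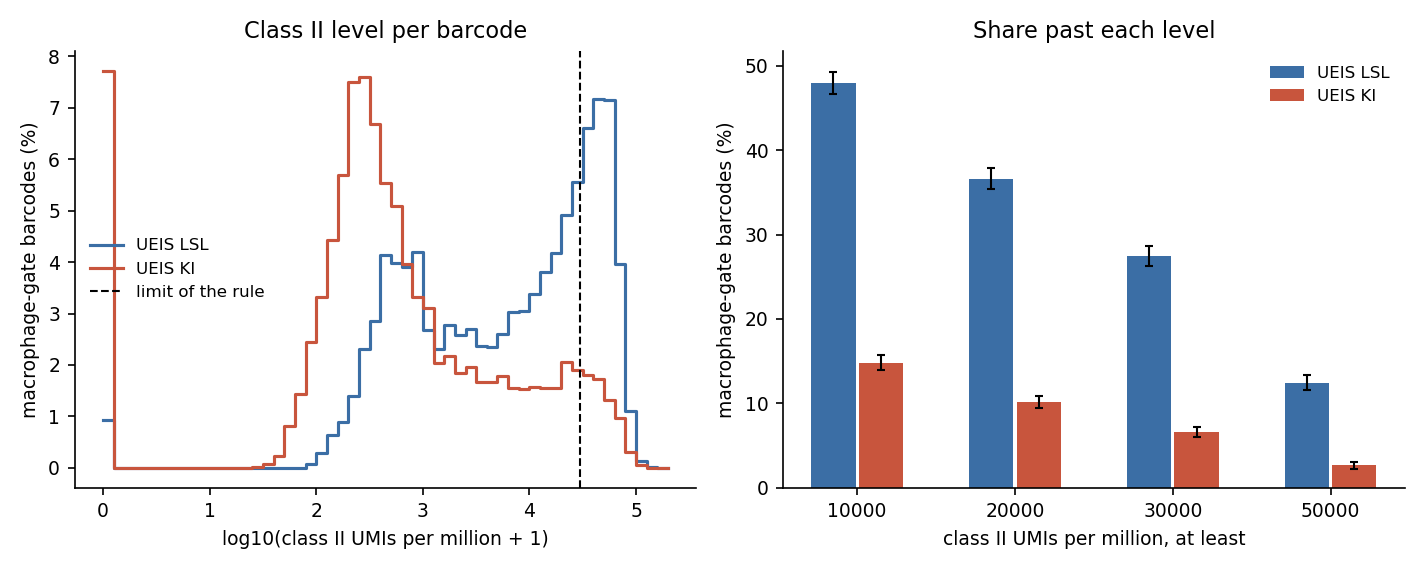
Left, the class II level of each macrophage-gate barcode as log10 of the CPM plus 1 (x axis) against the percentage of the gate (y axis) in UEIS LSL and UEIS KI, with the 30000 CPM limit dashed. Right, the percentage of the gate at or above 4 class II levels with exact 95% Clopper-Pearson intervals: UEIS LSL is above UEIS KI at each, from 48.0% against 14.8% at 10000 to 12.5% against 2.66% at 50000.

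Within the members, whose lower limit the rule fixes, the class II levels of the libraries were close. The median member carried class II RNA at 46779 CPM in UEIS LSL (quartiles 37730 and 57977) and 46630 in UEIS KI (38077 and 58583), and the highest 106320 and 107639. The range from 30000 to 40000 CPM held 30.6% (27.8 to 33.6) of UEIS LSL members and 31.5% (26.2 to 37.2) of UEIS KI members. The range from 60000 to 100000 held 20.8% (18.3 to 23.4) and 22.8% (18.1 to 28.1). Median depth was 8616 UMIs per member in UEIS LSL and 7952 in UEIS KI, with medians of 2633 and 2502 detected genes. The C1q sum of the median member was 10253 CPM in UEIS LSL and 7215 CPM in UEIS KI.

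Barcodes just outside the class II limit had H2-DM RNA at levels near those just inside it. The 166 barcodes of UEIS LSL and 57 of UEIS KI with 25000 to 30000 CPM that met every other term had *H2-DMa* at 541 and 575 CPM. The 165 and 43 members with 30000 to 35000 CPM had it at 574 and 547 CPM. *H2-DMb1* was at 583 and 565 CPM outside and at 684 and 579 CPM inside. Barcodes lay on both sides of the limit without a gap, so the members are defined by a range of class II level. Whether they are a separate cell type was not tested.

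The class II genes are taken first. The 4 that chose the members are given as a description: *Cd74* stood at 30197 CPM in UEIS LSL members and 30507 CPM in UEIS KI members, *H2-Aa*, an alpha chain of I-A, at 8105 and 8535 CPM, *H2-Ab1*, its beta chain, at 4241 and 4307 CPM, and *H2-Eb1*, the beta chain of I-E, at 6185 and 5870 CPM. In class II-low counterparts, the 2756 and 2935 barcodes that met each other term of the rule with under 30000 CPM, *H2-Aa* was at 1072 and 366 CPM. The counterparts themselves were unequal, since their median class II level was 2590 CPM in UEIS LSL and 401 in UEIS KI. A ratio of members to counterparts is therefore larger in UEIS KI for class II genes by the choice of cells.

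Of 7 further class II genes that the rule does not use, 6 were measured (at least 50 UMIs over both libraries) and *H2-Eb2* had 6 and 0 UMIs. *H2-DMa* and *H2-DMb1*, the chains of the peptide exchanger, stood at 829 and 1035 CPM in UEIS LSL members. In UEIS KI members they were at 813 and 886 CPM, log2 ratios of UEIS KI over UEIS LSL of -0.03 (-0.10 to 0.04) and -0.22 (-0.29 to -0.16). *Ciita* was at 54.4 and 41.5 CPM, a log2 ratio of -0.39 (-0.71 to -0.08). All 6 measured genes were at least 1.5-fold higher in members than in class II-low counterparts within both libraries. *Ciita* had the largest of the UEIS LSL ratios, with counterparts at 7.76 CPM in UEIS LSL and 2.82 CPM in UEIS KI, log2 ratios of 2.81 (2.58 to 3.04) and 3.88 (3.47 to 4.30). *H2-DMa* had log2 ratios of 1.58 (1.54 to 1.63) and 2.26 (2.19 to 2.33), and *H2-DMb1* 2.38 (2.33 to 2.43) and 3.08 (3.01 to 3.16).

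The lower-level class II genes differed more between the libraries. *H2-DMb2*, a second DM beta chain, was at 64.9 CPM in UEIS LSL members and 115.7 CPM in UEIS KI members, a log2 ratio of 0.83 (0.63 to 1.04). *H2-Oa*, a chain of the DM inhibitor H2-O that is best known from B cells, was at 5.80 and 15.7 CPM, a log2 ratio of 1.44 (0.81 to 2.06). Its partner *H2-Ob* was at 5.37 and 5.24 CPM. In class II-low counterparts *H2-Oa* was at 0.907 and 0.910 CPM. *H2-DMb1* and *H2-DMb2* are near copies of each other, so reads could have been split between them, and their separate values are uncertain.

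Class II promoters share a set of short elements that bring RFX, CREB and NF-Y proteins together, the platform on which the CIITA protein acts. The windows of 2 of the rule's genes and a short stretch of *H2-DMb1* are printed, because these genes set or follow the class II level of the members. Sequences are from RefSeq on GRCm38.p6, with the Y box core TGATTGG and the X box pattern (AG, any 2 bases, AC, any 2 bases, ATG) in capitals. The *H2-DMb1* stretch begins at its X box pattern and ends before its Y box core, which is not printed. *H2-Aa* is shown for the 150 bases before its start at chr17:34287824-34287973 on the minus strand, *H2-Eb1* for the 150 bases before its start at chr17:34305717-34305866 on the plus strand, and *H2-DMb1* for 30 bases at chr17:34153096-34153125 on the plus strand.
H2-Aa: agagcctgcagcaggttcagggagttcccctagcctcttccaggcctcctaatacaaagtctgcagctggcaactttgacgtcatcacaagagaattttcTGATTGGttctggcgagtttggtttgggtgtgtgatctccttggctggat
H2-Eb1: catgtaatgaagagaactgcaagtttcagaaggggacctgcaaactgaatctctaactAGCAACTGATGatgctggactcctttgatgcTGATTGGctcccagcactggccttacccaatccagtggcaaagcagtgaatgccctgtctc
H2-DMb1: AGTAACTGATGatgctaggctgattcactc

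Both motifs were searched on both strands in windows from 250 bases before to 50 bases after each start. The Y box core was in 2568 of 32851 windows (7.82%), the X box pattern in 1016 (3.09%) and both in 75 (0.228%). Of 10 class II genes looked up, 8 had a window, and *H2-Ab1* and *Ciita* had no entry. The Y box core was found in 7 of the 8 and the X box pattern in 5. In *H2-Eb1* the X box pattern began 92 bases and the Y box core 61 bases before the start, and in *H2-DMb1* 95 and 63 bases before it. *H2-DMa*, higher in members than in class II-low counterparts like the others, had neither motif in its 2 windows. A match is a description of letters and does not show that a factor was bound.

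Among members, several genes followed the class II level. From 30000 to 40000, 40000 to 60000 and 60000 to 100000 CPM of class II RNA, *H2-DMb1* was at 755, 1067 and 1412 CPM in UEIS LSL and at 658, 969 and 1076 CPM in UEIS KI. *Ciita* was at 32.4, 56.1 and 85.1 CPM in UEIS LSL and at 32.4, 39.1 and 61.2 CPM in UEIS KI, with wider intervals in UEIS KI, whose bins held 91, 130 and 66 cells. *Itgax*, the integrin CD11c, was at 87.8, 101 and 145 CPM in UEIS LSL and at 92.5, 92.6 and 169 CPM in UEIS KI. *Mki67*, which marks dividing cells, went the other way, at 56.3, 33.9 and 9.95 CPM in UEIS LSL and 42.8, 17.2 and 9.0 CPM in UEIS KI.

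Macrophage genes differed in how they ran along the same bins. *Csf1r* was at 647, 667 and 682 CPM in UEIS LSL and at 527, 553 and 525 CPM in UEIS KI. *Apoe* was at 3474, 3337 and 3027 CPM in UEIS LSL, and at 2519, 2526 and 2628 CPM in UEIS KI. *Ms4a7* was at 282, 222 and 220.5 CPM in UEIS LSL and at 84.4, 169.9 and 176 CPM in UEIS KI, so it was lower in the upper bins of one library and higher in those of the other. *Adgre1* was at 168, 148 and 135 CPM in UEIS LSL and at 103, 88.8 and 84.6 CPM in UEIS KI. In each of these 3 bins *Csf1r* and *Apoe* were lower in UEIS KI, with Poisson intervals that did not overlap. Only 4 members of UEIS LSL and 2 of UEIS KI lay above 100000 CPM, too few for a value to be read.

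**Figure D2:**
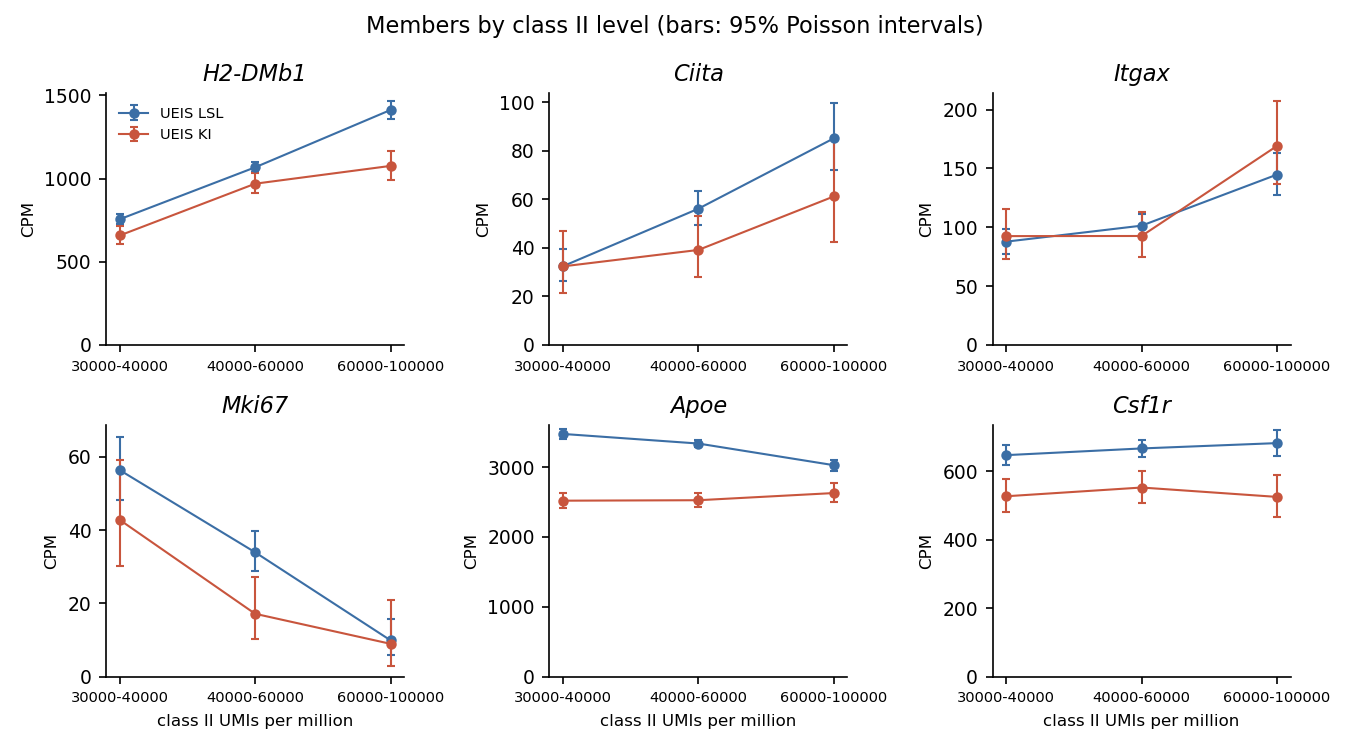
CPM of 6 genes (y axes) in members grouped by class II CPM (x axes: 30000 to 40000, 40000 to 60000 and 60000 to 100000) in UEIS LSL and UEIS KI, with exact 95% Poisson intervals. *H2-DMb1* goes from 755 to 1412 CPM in UEIS LSL and from 658 to 1076 CPM in UEIS KI, *Mki67* goes down in both, and the *Apoe* and *Csf1r* lines of the libraries stay apart.

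Against their class II-low counterparts, members carried more RNA for class II genes, and less for resident-like and cell cycle genes. Of 11358 genes measured in both libraries, 234 (2.06%) were at least 1.5-fold higher in members in each library with intervals above 1, and 766 (6.74%) were at least 1.5-fold lower. After each cell was thinned to 2000 UMIs these counts were 116 and 270 of 8100 genes. The median log2 ratio over all genes was -0.16 in UEIS LSL and -0.20 in UEIS KI, so the balance of higher and lower genes also holds a shift of the whole distribution. The counterparts were deeper, with medians of 9380 and 10489 UMIs, and more of them were marked as likely doublets, 8.64% and 9.34% against 3.68% and 3.11% of members. With marked doublets removed the counts were 257 and 712.

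*Il1b*, the cytokine interleukin-1 beta, stood at 2367 CPM in UEIS LSL members and 2369 CPM in UEIS KI members, against 1067 and 793 CPM in their counterparts, log2 ratios of 1.15 (1.12 to 1.17) and 1.58 (1.54 to 1.62). *Napsa*, an aspartic protease, was at 203 and 308 CPM in members against 75.1 and 84.9 CPM. *Plbd1*, a phospholipase-like protein, was at 387 and 320.0 CPM against 146 and 81.6 CPM. Of 20 inflammatory genes measured, 2 were at least 1.5-fold higher in members, *Il1b* and *Ptgs2*, and none lower. *Il1b*, *Napsa* and *Plbd1* were higher in members of both libraries whether their level in UEIS KI members was above, near or below that in UEIS LSL members.

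The other genes ranked highest were *Tmem176b*, *Tnip3*, a brake on NF-kappaB, *Cytip*, *Malt1*, a protease of antigen receptor signalling, *F11r*, *Clec7a*, the beta-glucan receptor dectin-1, and *Bhlhe40*, a transcription factor. Their log2 ratios lay between 0.98 and 1.29 in UEIS LSL and between 1.17 and 1.90 in UEIS KI. Of 14 C-type lectins 3 were higher in members, *Mgl2*, *Clec4b1* and *Clec7a*, and 2 lower. *Mgl2*, encoding the galactose-type lectin CD301b, was at 622 and 291 CPM in members against 146 and 24.7 CPM in counterparts, log2 ratios of 2.09 and 3.56. *Clec4b1*, another lectin, had ratios of 2.21 and 3.30. *Ccl17*, a chemokine that attracts CCR4-bearing T cells, had ratios of 3.20 (2.86 to 3.54) and 3.97 (3.69 to 4.26), from 3.33 and 5.46 CPM in counterparts to 30.5 and 85.9 CPM in members. Only 48 and 33 members carried a UMI of it, and 5 cells of each library held 51.1% and 56.8% of its UMIs.

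*Itgax* was at 106 and 110 CPM in members against 33.2 and 18.4 CPM, log2 ratios of 1.68 and 2.58. *Ccr2*, the receptor that brings monocytes into tissue, was at 639 and 605 CPM against 371 and 304 CPM, at least 1.5-fold higher in both libraries. *Ly6c2*, which marks classical monocytes, was at only 7.09 and 8.06 CPM in members, so the members held *Ccr2* RNA with little *Ly6c2* RNA. The monocyte-derived list had 2 genes higher and 1 lower of 17.

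Genes lower in members were led by *Pmp22*, *Pf4*, *Folr2*, *Gas6*, *Ctsk* and *Stab1*. *Pf4*, the chemokine platelet factor 4, was at 399.9 and 448 CPM in members against 2094 and 1970.2 CPM in counterparts, log2 ratios of -2.39 (-2.44 to -2.34) and -2.14 (-2.22 to -2.05). *Folr2*, a folate receptor of tissue macrophages, was at 20.6 and 39.5 CPM against 119.9 and 173 CPM. *Ctsk*, a collagen-cutting protease, was at 4.72 and 78.2 CPM against 87.6 and 282 CPM, and 1 cell held 153 of its 194 UMIs in UEIS KI members. Of 13 measured resident-like macrophage genes 8 were lower and 1, *Mgl2*, higher, with list medians of -1.30 and -1.25. Among 18 macrophage identity genes 5 were lower in members and none higher, with list medians of -0.18 and -0.39.

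Cell cycle genes were lower in members as a list, 21 of 30 with none higher and medians of -0.83 in UEIS LSL and -1.42 in UEIS KI. *Ube2c*, a ubiquitin-conjugating enzyme of mitosis, was at 68.6 and 91.9 CPM in members against 173 and 253 CPM in counterparts. *Mki67* was at 36.5 and 24.6 CPM against 60.5 and 90.6 CPM. Of 22 lipid-associated and tumour-associated genes 6 were lower and none higher, among them *Gpnmb* with log2 ratios of -1.63 and -3.19 and *Cd36*, a lipid scavenger receptor, with -2.34 and -2.03. Chemokine genes split, with 2 of 20 higher (*Ccl17* and *Ccl5*) and 7 lower, *Ccl12*, *Ccl7*, *Ccl2* and *Pf4* among them.

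Members also differed from class II-high macrophages that had at least 1 *Cxcl9* UMI and met every other term, 261 barcodes in UEIS LSL and 39 in UEIS KI. These were 20.6% (18.4 to 22.9) and 11.9% (8.59 to 15.9) of members and *Cxcl9*-positive barcodes together, a log2 ratio of -0.79 (-1.32 to -0.30). Of 5789 genes measured, 27 (0.466%) were at least 1.5-fold higher in members in both libraries and 51 (0.881%) lower. *Gbp2*, an interferon-induced GTPase, was at 47.5 and 34.7 CPM in members against 448 and 477 CPM, log2 ratios of -3.24 (-3.40 to -3.08) and -3.78 (-4.17 to -3.41). *Cxcl10*, a ligand of the same receptor as *Cxcl9*, was at 103 and 39.9 CPM against 925 and 561 CPM. Of 12 measured interferon-gamma-induced genes 11 were lower in members and none higher, with list medians of -1.47 and -1.92. *Cxcl9*, on which the sets were split, is induced by the same cytokine, so this difference comes in part from the choice of cells.

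The class II genes did not follow that split. Both sets had to pass the same class II limit of 30000 CPM, so likeness in these genes comes in part from the choice of cells. *H2-DMa* had log2 ratios of members over *Cxcl9*-positive barcodes of -0.18 and -0.25, *H2-DMb1* of -0.07 and -0.20 and *Ciita* of -0.32 and -0.19, and 0 of the 4 class II genes measured there were at least 1.5-fold apart in both libraries. MHC class I genes did follow the split, with 9 of 17 lower in members. *Irf1*, the transcription factor at the head of the interferon-gamma response, was at 77.9 and 42.7 CPM in members against 170.2 and 149.7 CPM. The genes ranked highest in members were *Ccl6*, *Lsp1*, *Mmp12*, *Fn1*, *Ccl9* and *Crip1*. *Ccl6*, a macrophage chemokine, was at 1552 and 1846 CPM against 956 and 725 CPM, and *Mmp12*, macrophage elastase, at 326 and 468 CPM against 192 and 259 CPM. *Fn1* passed 1.5-fold in UEIS KI alone and *Crip1* in neither library.

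Class II-high barcodes with *Cd209a* or *Flt3*, both dendritic cell genes, numbered 99 and 29, and 16.2% and 34.5% of them were marked as likely doublets. Of 5818 genes, 42 (0.722%) were at least 1.5-fold higher in members than in these barcodes in both libraries and 46 (0.791%) lower. *Apoe* was at 3326 and 2566 CPM in members against 1587 and 1492 CPM, log2 ratios of 1.07 and 0.78. *Lyz2*, the macrophage lysozyme, was at 8301 and 5087 CPM against 5344 and 2923 CPM. *H2-DMb2* was lower in members, at 64.9 and 115.7 CPM against 222 and 280.1 CPM, and so was *Mgl2*, at 622 and 291 CPM against 937 and 684 CPM. These barcodes had less *Apoe* and *Lyz2* RNA than the members and more *Mgl2* RNA.

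**Figure D3:**
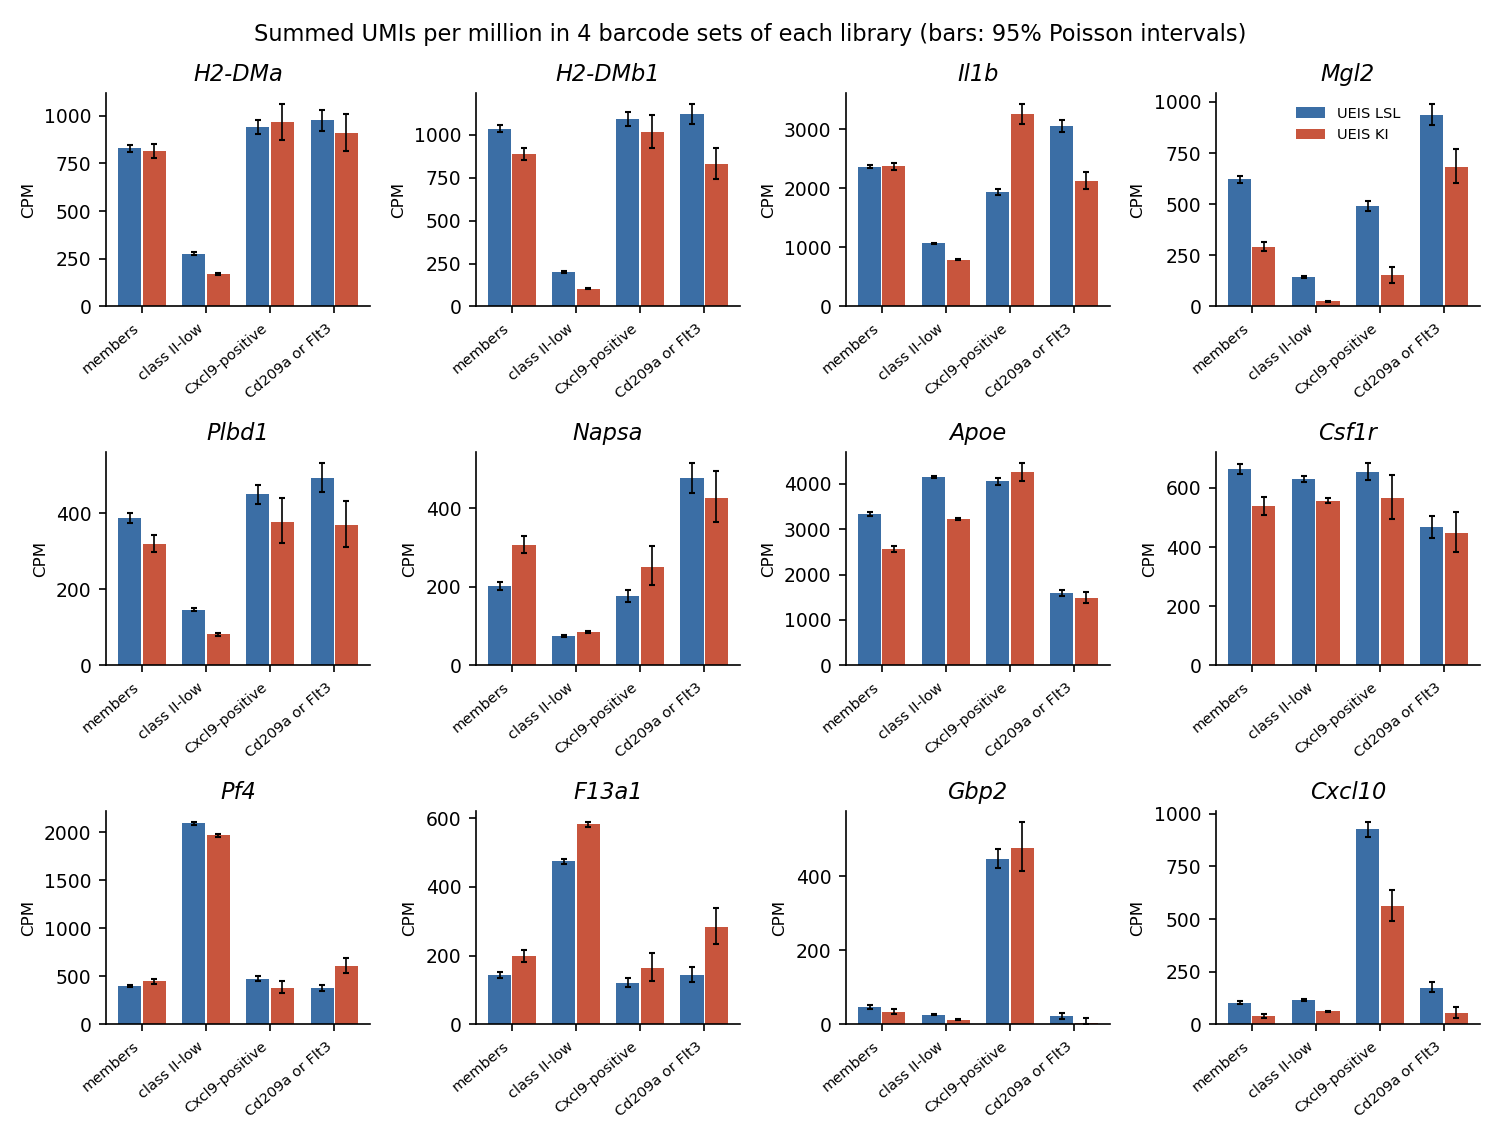
CPM (y axes, linear from 0) of 12 genes in 4 barcode sets of UEIS LSL and UEIS KI: members, class II-low counterparts, *Cxcl9*-positive class II-high barcodes and class II-high barcodes with *Cd209a* or *Flt3*, with exact 95% Poisson intervals. *H2-DMa* and *H2-DMb1* are low in the class II-low set alone, *Pf4* and *F13a1* are highest there, and *Gbp2* and *Cxcl10* are high in the *Cxcl9*-positive set alone.

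Between the libraries, members of UEIS KI carried more *Lyz1* and *Ltc4s* RNA and less *Ccl12*, *Gatm* and *Mgl2* RNA. Of 9250 genes measured in members, 387 (4.18%) were at least 1.5-fold higher in UEIS KI with an interval above 1 and 393 (4.25%) at least 1.5-fold lower. In class II-low counterparts, which hold more cells, 109 (1.18%) of 9246 of these genes were higher and 191 (2.07%) lower. The median log2 ratio over all genes was -0.02 in members and 0.01 in counterparts. Thinning each member to 2000 UMIs left counts of 208 higher and 236 lower among 5394 genes.

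*Acp5*, tartrate-resistant acid phosphatase, ranked high through 1 cell. It was at 61.5 CPM in UEIS LSL members and 292 CPM in UEIS KI members, a log2 ratio of 2.25 (2.09 to 2.41), but 522 of its 724 UMIs in UEIS KI lay in 1 member, which was marked as a likely doublet and held 11 C1q UMIs. Without that cell, a check chosen after the data were seen, the ratio was 0.42, and with marked doublets removed it was 0.39. *Ltc4s*, which makes leukotriene C4, was at 44.0 and 163 CPM, a log2 ratio of 1.89 (1.69 to 2.09) against 0.56 in counterparts. *Lyz1* (ENSMUSG00000069515), a lysozyme, was at 10.3 and 580.0 CPM, a log2 ratio of 5.81 (5.52 to 6.13). In UEIS KI 86 of 289 members carried a UMI of it, and its 5 highest cells held 39.1% of the UMIs. At a class II limit of 50000 CPM the log2 ratio was 3.65, and with the genes required at 0 read after thinning it was 4.45. It was also higher in UEIS KI among counterparts, at 22.7 and 409 CPM, and *Cxcl9*-positive barcodes, at 5.70 and 45.1 CPM. *Lyz1* and *Lyz2* are near copies whose reads could be split, and *Lyz2* went the other way, at 8301 and 5087 CPM, so both values are uncertain.

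The other 9 genes ranked as higher in UEIS KI had log2 ratios from 0.80 to 1.15. They were *Tppp3*, *Rgcc*, *S100a4* and *S100a6*, which are calcium-binding proteins of motile cells, *Ecm1*, *AA467197*, *Lsr*, a lipoprotein receptor, *Mgst3* and *Nr4a2*, an orphan nuclear receptor. *S100a6* had the narrowest interval, at 2717 and 4741 CPM, a log2 ratio of 0.80 (0.77 to 0.83). *Lsr* stood at 54.4 and 105.6 CPM in members but at 26.7 and 28.7 CPM in counterparts, a ratio of 0.10 (not tested against that of members). Among the other gated cell types, *Tppp3*, *AA467197* and *Lsr* were highest in dendritic cells. So were *Mgl2* and *Sdf2l1*, ranked as lower in UEIS KI. Pooled over both libraries, members had 1.29, 1.01 and 1.01 of the dendritic cell level of *Tppp3*, *AA467197* and *Lsr*. The part of dendritic cell RNA in these ratios was not tested.

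*Ccl12*, a monocyte-attracting chemokine, was the gene ranked lowest in UEIS KI. It was at 468.5 CPM (454.7 to 483) in UEIS LSL members and 105.6 CPM (93.2 to 119) in UEIS KI members, a log2 ratio of -2.15 (-2.33 to -1.97), against -0.32 in counterparts at 911 and 729 CPM. Of its UMIs in UEIS KI members, 42.0% lay in 5 cells. *Ccl7* and *Ccl4*, other CC chemokines, had ratios of -0.91 and -1.01. *Gatm*, the first enzyme of creatine synthesis, was at 229.7 and 82.6 CPM, a ratio of -1.47 (-1.69 to -1.27). *Mgl2* was at 622 and 291 CPM, a ratio of -1.09 (-1.21 to -0.98), and at 146 and 24.7 CPM in counterparts, a ratio of -2.56.

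The remaining genes ranked as lower were *Mcm6*, a subunit of the replication helicase, *Fcgr4*, an activating Fc receptor, *Aif1*, *Ly86*, which pairs with a relative of the Toll-like receptors, *Clec12a*, *Fcrls* and *Sdf2l1*, an endoplasmic reticulum protein. Their log2 ratios lay between -1.19 and -0.89. *Clec12a*, an inhibitory lectin, was at 153 and 76.2 CPM in members and at 156 and 158 CPM in counterparts. The 24 genes named by rank between the libraries had the same sign in members under each of the alternatives run, and all but *Acp5* stayed past 1.5-fold.

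**Figure D4:**
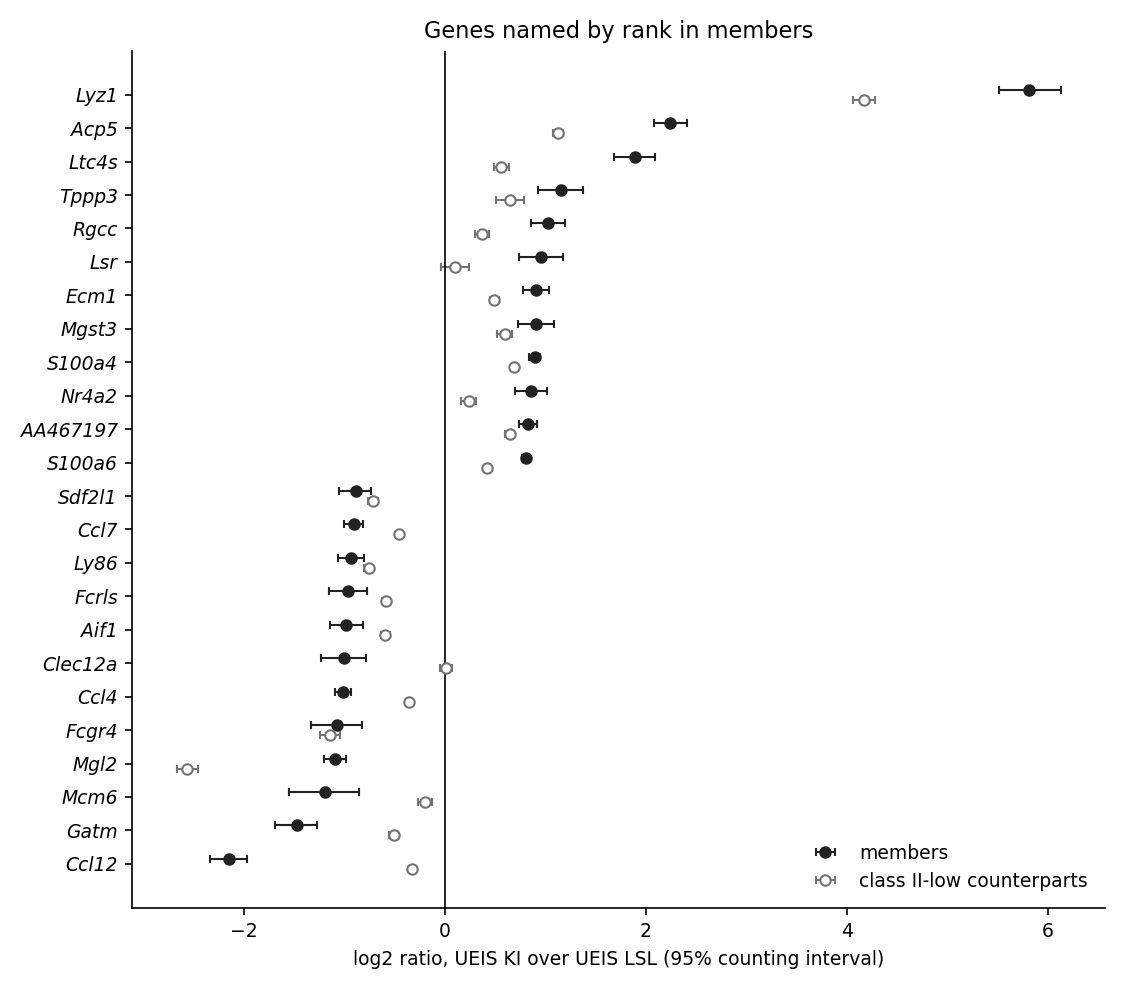
Log2 ratio of UEIS KI over UEIS LSL (x axis) with 95% counting intervals for the 24 genes ranked highest and lowest in members (filled points) and the same genes in class II-low counterparts (open points). *Lyz1* at 5.81 and *Ccl12* at -2.15 are the ends in members, and *Mgl2* and *Fcgr4* are the genes whose open point lies to the left of the filled one among those lower in UEIS KI.

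Interferon-gamma-induced genes were lower in UEIS KI members as a list. Of 30 genes 20 were measured, and 13 were at least 1.5-fold lower, none higher and 7 neither, with a median log2 ratio of -0.96 beside -0.02 over all genes. The rule removes barcodes with *Cxcl9*, the best-known gene of this kind, and the list was still lower among the cells it kept. *Cxcl10* was at 103 and 39.9 CPM, a ratio of -1.37 (-1.68 to -1.07), which was -0.50 at a class II limit of 50000 CPM, and 5 cells held 57.6% of its UMIs in UEIS KI. *Iigp1*, an immunity-related GTPase, had 108 and 5 UMIs, and *Ly6a*, at 152 and 160.4 CPM, had the highest ratio of the list at 0.08 (-0.08 to 0.24). The median member summed to 827 CPM over the list in UEIS LSL (quartiles 492 and 1436) and 441 in UEIS KI (254 and 835), so the quartile ranges overlapped. In class II-low counterparts 17 of the same 20 genes were lower, with a median of -0.91.

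Genes of MHC class I presentation, which shows peptides from inside the cell to CD8 T cells, were also lower. Of 22 measured, 9 were at least 1.5-fold lower and none higher, with a median of -0.45, and in counterparts 7 were lower with a median of -0.39. *B2m*, the invariant light chain, was at 1418 and 1221 CPM, a ratio of -0.22 (-0.27 to -0.16), and *H2-D1* and *H2-K1*, classical heavy chains, had ratios of -0.25 and -0.33. *Psmb9*, an immunoproteasome subunit, was at 129 and 81.0 CPM, a ratio of -0.67 (-0.90 to -0.46), and *Tap2*, which pumps peptide into the endoplasmic reticulum, at 54.5 and 36.3 CPM, a ratio of -0.59 that was 0.050 after thinning. *H2-Q4*, a nonclassical chain with near copies, had the lowest ratio of the list at -1.30 (-1.95 to -0.72).

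The type I interferon list was less one-sided in members. Of 55 genes 41 were measured, 8 lower and 1 higher in UEIS KI, with a median of -0.29, while in counterparts 24 of the 41 were lower with a median of -0.66. *Ifitm1*, a membrane protein that restricts viruses, was the one higher, at 207 and 432.5 CPM, a ratio of 1.06 (0.95 to 1.17), and at 69.3 and 55.7 CPM in counterparts. *Isg15*, a ubiquitin-like modifier, was at 55.6 and 35.5 CPM, a ratio of -0.65 (-0.99 to -0.32) that was -0.23 at a class II limit of 20000 CPM, and *Ifitm2* at 1299 and 1329 CPM. *Phf11b* was the lowest, at 41.4 and 18.1 CPM. Summed over the list, the UMIs of members had a log2 ratio of -0.10, nearer to 0 than the list median. The median member summed to 3900 CPM in UEIS LSL (quartiles 2720 and 5801) and 3980 in UEIS KI (2480 and 5728), so it was not lower in UEIS KI. The rule also removes barcodes with *Rsad2*, a type I interferon-induced gene, from members and counterparts alike. The difference between the list medians of members and counterparts was not tested.

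Genes of the cGAS-STING pathway and of the interferon-gamma receptor were closer to 0. Of 17 cGAS-STING genes measured among 19, 1 was lower and none higher, with a median of -0.14. That gene was *Cgas*, the DNA sensor, at 17.9 and 10.1 CPM, a ratio of -0.83 (-1.50 to -0.22) that was -0.54 with every cell counted alike, and *Sting1*, its adaptor, was at 69.3 and 54.0 CPM, a ratio of -0.36 (-0.64 to -0.09). Of 10 interferon-gamma receptor signalling genes 2 were lower, *Irf1* among them, and 1 higher, the receptor kinase *Jak2*, at 16.9 and 34.3 CPM, with a median of -0.18. *Ifngr1*, the ligand-binding chain, was at 347 and 358 CPM.

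The machinery that feeds class II molecules differed little. Of 16 peptide supply genes 15 were measured, 1 lower and none higher, with a median of -0.10. *Ctss*, the protease that trims the invariant chain, was at 2364 and 2392 CPM, and *Ifi30*, which reduces disulphide bonds of antigens, at 1507 and 1480.1 CPM. *Lgmn*, an endosomal protease, was the one lower, at 1253 and 833 CPM, a ratio of -0.59 (-0.66 to -0.52) at the edge of 1.5-fold. *Ctsl*, at 554 and 719.5 CPM, was also lower in members than in counterparts in both libraries. Among 11 costimulation and inhibition ligands 1 was higher and none lower, *Cd80*, at 25.8 and 38.7 CPM, while *Cd86*, the other B7 ligand, was at 109 and 126 CPM and *Cd274*, encoding PD-L1, at 21.2 and 18.5 CPM.

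Macrophage identity genes were lower in part. UEIS KI members had 6 of 18 at least 1.5-fold lower and none higher, with a median of -0.27, against 2 lower and a median of -0.10 in counterparts. *Adgre1*, encoding F4/80, was at 153 and 92.3 CPM, a ratio of -0.73 (-0.93 to -0.52). *Fcer1g* and *Tyrobp*, adaptors of activating receptors, were at 3257 and 2507 CPM in UEIS LSL and 3333 and 3044 CPM in UEIS KI. Fc receptor genes had 3 of 7 lower, *Fcgr1*, *Fcgr4* and *Fcrls*, and the Ms4a and Tmem176 genes 5 of 8 lower and 1 higher, with a median of -0.70. *Ms4a7* was at 242 and 141 CPM, and *Tmem176b*, one of the genes that set members apart from counterparts, at 567 and 317 CPM.

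The monocyte-derived list was split. Of 15 measured genes 5 were higher in UEIS KI and 4 lower, and its median of 0.22 and the log2 ratio of its summed UMIs, -0.26, had opposite signs, with *Lyz2* at 8301 and 5087 CPM. *Vcan*, a matrix proteoglycan, was at 18.4 and 58.8 CPM, a ratio of 1.68 (1.35 to 2.01), and *Fn1*, fibronectin, at 1660.1 and 2755 CPM, a ratio of 0.73 (0.69 to 0.77) that was 0.32 at a class II limit of 50000 CPM. *Cx3cr1*, a receptor of patrolling monocytes and macrophages, was lower at 289 and 176 CPM. *Ccr2* was nearly level, at 639 and 605 CPM.

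Lipid-associated and tumour-associated genes were higher in part. Of 20 measured among 24, 7 were at least 1.5-fold higher in UEIS KI and 1 lower, with a median of 0.36, against 4 higher, 1 lower and a median of 0.08 in counterparts. The rule caps *Spp1*, a leading gene of this kind. *Ctsk* was at 4.72 and 78.2 CPM, a ratio of 4.05 (3.57 to 4.56), which was 1.82 without the cell that held most *Acp5*. *Retnla*, a marker of alternative activation, was at 31.6 and 115.7 CPM, with 80.3% of its UMIs in 5 cells of UEIS LSL and 65.9% in 5 cells of UEIS KI. Its ratio of 1.87 was 0.60 at a class II limit of 50000 CPM. *Arg1*, which depletes arginine, was at 398 and 606 CPM, a ratio of 0.61 that was between 0.41 and 0.57 under 7 alternatives. *Gpnmb* was the one lower, with 63 UMIs in UEIS LSL and 4 in UEIS KI, and at a class II limit of 50000 CPM its ratio was 0.11. *Trem2*, a lipid receptor, was at 470.0 and 434 CPM, a ratio of -0.12 (-0.21 to -0.02).

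Glycolysis and hypoxia genes had a median of 0.43, with 4 of 20 at least 1.5-fold higher and none lower, and in counterparts 0 past that limit in either direction and a median of 0.13. *Gapdh*, a glycolytic enzyme, was at 4293 and 5447 CPM, a ratio of 0.34 (0.32 to 0.37), *Hilpda*, a hypoxia-induced lipid droplet protein, at 98.5 and 196 CPM, and *Ddit4*, a stress-induced brake on mTOR, at 32.3 and 67.7 CPM. Oxidative phosphorylation genes had a median of -0.02, with 1 of 20 lower. Cell cycle genes had a median of -0.23 in members, with 4 of 30 lower (*Mcm3*, *Mcm5*, *Mcm6* and *Rrm1*, all of DNA replication), and 0.26 in counterparts, with 4 higher.

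Chemokine genes had 6 of 18 lower and 1 higher in UEIS KI members, with a median of -0.29. *Ccl5*, which attracts T cells, was at 68.9 and 19.8 CPM, a ratio of -1.80 (-2.25 to -1.38), with 57.3% and 87.8% of its UMIs in 5 cells, and *Ccl2* at 889 and 571 CPM. *Ccl17* was the one higher, at 30.5 and 85.9 CPM, a ratio of 1.49 (1.23 to 1.75), with 51.1% and 56.8% of its UMIs in 5 cells. *Cxcl2*, a neutrophil chemokine, was at 3469.7 and 2962 CPM. Among transcription factors 4 of 32 were higher, *Nr4a2*, *Nr4a3*, *Id2* and *Id3*, and 3 lower, with *Batf3* among these at 53.0 and 18.1 CPM, a ratio of -1.55 (-2.02 to -1.11).

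In the other lists the number of genes past 1.5-fold varied. C-type lectins had 5 lower and 1 higher of 13, the 1 being *Clec4d*. Inflammatory genes had 1 lower of 17, *Il18*, and a median of 0.10, with *Il1b* at 2367 and 2369 CPM. Resident-like genes had 2 higher and 3 lower of 11, chemokine receptors 1 each way of 7, and cholesterol and complement genes 1 higher each of 18 and 12, *Nr1h3* and *C4b*. Of 18 genes raised by tissue dissociation 1 was lower and the median was -0.07, so this mark of handling was nearly level between the members of both libraries. In class II-low counterparts 3 of the 18 were lower and none higher, with a median of -0.26. Medians and summed ratios also differed in sign, close to 0, for complement genes (-0.02 and 0.03) and transcription factors (0.01 and -0.05). The CD45 gene *Ptprc* was at 251 and 258 CPM, and *Xist*, the one sex-linked gene measured, at 558 and 544 CPM.

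**Figure D5:**
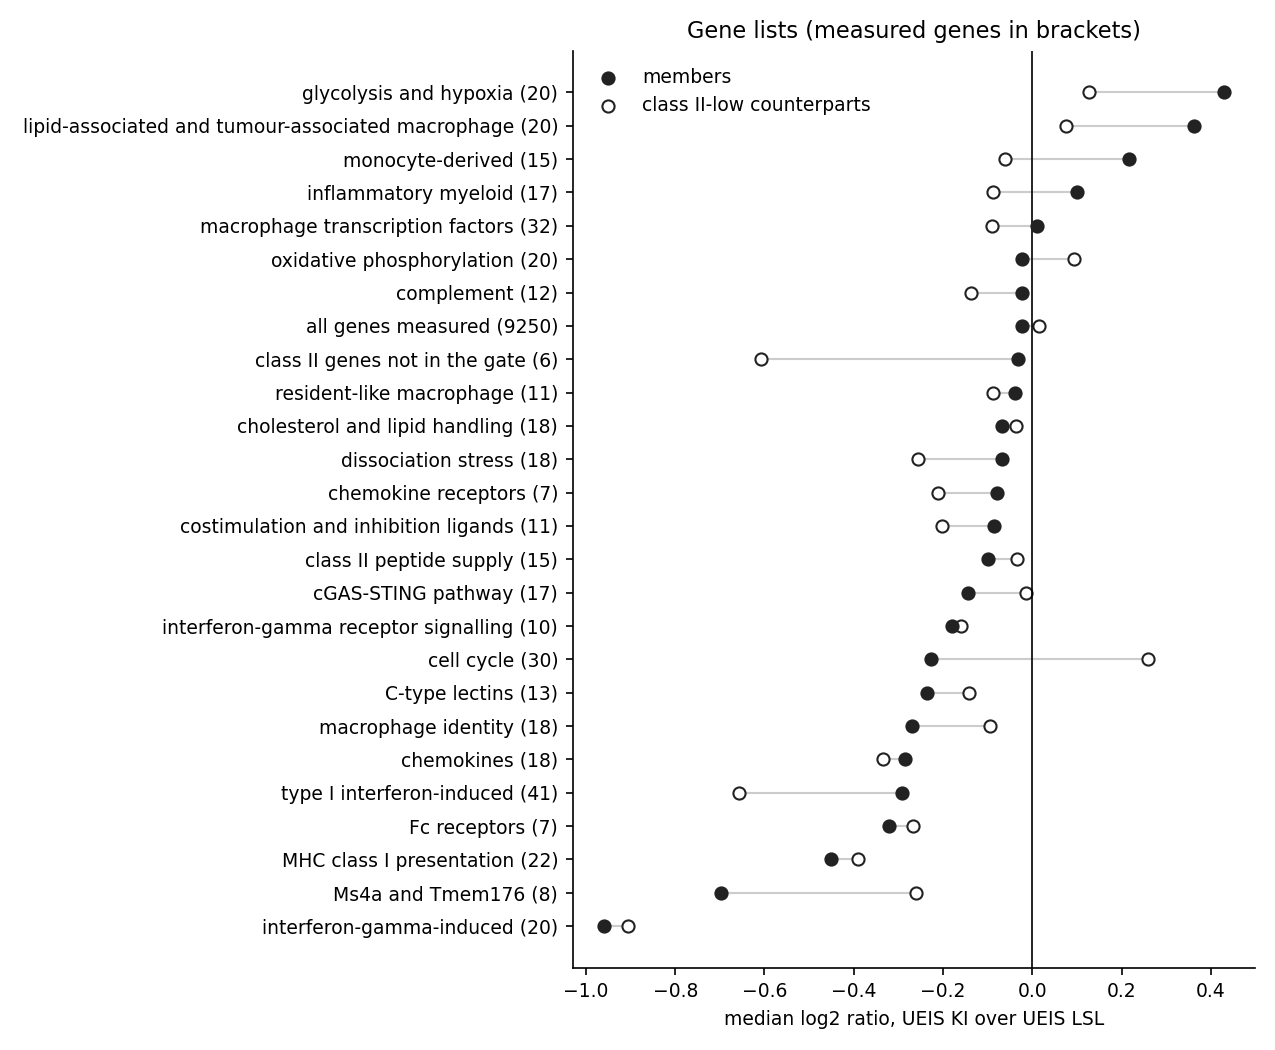
Median log2 ratio of UEIS KI over UEIS LSL (x axis) of 25 gene lists and of all measured genes in members (filled points) and of the same genes in class II-low counterparts (open points), with the number of measured genes in brackets. The interferon-gamma list is lowest in both at -0.96 and -0.91, the type I interferon list is at -0.29 and -0.66, and the glycolysis and hypoxia list is highest in members at 0.43.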

How the data were processed

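The authors deposited unnormalised UMI counts, 1 matrix a library. The submitters' processing notes name Cell Ranger 2.1.1 and mm10, the file header Cell Ranger 8.0.1, and the annotation is not given in the sources used here. The libraries held 92764697 UMIs in UEIS LSL and 99404988 UMIs in UEIS KI, and 9312679 and 2480899 in members. They shared 34 barcode sequences, with 2 members of each library among them and none a member in both.

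Counts were summed over cells in each library and scaled to CPM with exact Poisson intervals. For ratios the 95% intervals are exact conditional binomial ones, with 3 counts as the floor where a gene had 0. Rows with the same symbol (901) were summed. Doublets were scored with scikit-learn 1.9.0 as in Scrublet (30 components, 2000 genes, the top 0.8% per 1000 barcodes marked) and kept. Python 3.11.15, numpy 2.4.6, scipy 1.17.1, pandas 2.3.3 and matplotlib 3.10.9 were used. Scripts were tested on simulated data.

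Named genes needed 50 UMIs over both libraries, 50 CPM and an interval excluding 1, ranked by the bound nearest 1, 12 each way (6 against *Cxcl9*-positive barcodes, and by the same ranking against those with *Cd209a* or *Flt3*, which the rule did not cover). Genes of the rule, predicted, mitochondrial, ribosomal, haemoglobin, receptor segment and sex-linked genes and those under 0.25 of their level in another gated cell type were left out. From the 27 lists the genes with most UMIs or extreme ratios were named, besides some chosen for their known role after their values were seen. The members and lists were chosen with earlier results of these data known. The results of some genes are not reported here.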

Additional observations from a re-analysis of the deposited data

Results flagged for a closer look

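In 2 listed genes members were past 1.5-fold of their class II-low counterparts in opposite directions in the 2 libraries, and this difference was not tested. *C4b*, a complement component, had a log2 ratio of members over counterparts of -1.46 (-1.88 to -1.06) in UEIS LSL against 0.65 (0.27 to 1.01) for UEIS KI. Its level in members was 6.01 CPM in UEIS LSL and 27.8 CPM in UEIS KI, and in counterparts 16.5 and 17.7 CPM. In UEIS KI members 59.4% of its UMIs lay in 5 cells. *Hp*, the haemoglobin-binding protein haptoglobin, had ratios of -0.82 (-1.09 to -0.55) and 0.88 (0.51 to 1.23), with members at 14.6 and 29.4 CPM and counterparts at 25.7 and 16.0 CPM. The counterparts' 6 fibroblast markers summed to 532 CPM in UEIS LSL and 177 CPM in UEIS KI, and their 6 neutrophil markers to 32.5 and 259.5 CPM. In members these sums were 34.3 and 21.8 CPM for fibroblast and 21.5 and 29.4 CPM for neutrophil markers. Their part in both genes was not tested.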

How the results depend on the processing

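Of 102 recalculations of the shares, gene counts and list medians, 97 stayed close to the reported value and 5 moved. A share was close within its reported interval, and a gene count within 1.5-fold. A list median was close within the median half-width of its genes' log2 intervals, 0.26 for class II and 0.49 for type I interferon genes. These limits are wide, and a list median near 0 could change sign and still count as close. With cells thinned to 2000 UMIs the genes at least 1.5-fold higher in UEIS KI members numbered 208 and the lower 236, and against class II-low counterparts 116 were higher and 270 lower. Fewer genes were then measured. With no filter on low counts, genes at least 1.5-fold higher in UEIS KI members numbered 586. The member share had a log2 ratio between -2.06 (*Cxcl9*-positive cells kept) and -1.80 (a class II limit of 20000). The interferon-gamma median was -0.70 at a class II limit of 50000, where 15 genes were measured. The class II median was between -0.14 and 0.18 and so took either sign. Of 1428 recalculations for single genes 1250 stayed close, 175 moved and 3 reversed: *Gpnmb* (0.11) and *Ifitm6* (-0.71) at a class II limit of 50000 and *Tap2* (0.050) after thinning. *Il1b*, *Itgax*, *Ly6a*, *Ctss*, *Cd274*, *Ifngr1* and *Ifi30*, not called, took either sign. Without 1 UEIS KI cell, chosen after the data were seen, *Acp5* was at 0.42 and *Ctsk* at 1.82. Removing members with other dendritic cell genes, chosen after the data were seen, kept 966 and 268 members and gave a share ratio of -1.96. No paired analysis was possible because each group held 1 library. The 289 cells of UEIS KI limit precision: the median half-width of a gene's log2 interval was 0.42.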
